A study of Mus musculus with 2 samples.

Results

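Sebaceous gland spots were examined in 2 Visium sections of imiquimod-treated mouse skin. Each section was restricted to capture spots with at least 500 UMIs (unique molecular identifiers, that is, counted RNA molecules), and 80 spots were chosen by the highest summed share of UMIs from 7 gland genes (Awat1, Scd3, Rarres1, Sec14l4, Soat1, Fa2h and Far2, the rule genes). They made up 80 of 1096 kept spots (7.30%) in the IMQ-treated S1pr2fl/fl mouse and 80 of 947 (8.45%) in the IMQ-treated S1pr2fl/fl K14-Cre mouse, 160 of 2263 spots over tissue in all. They are called gland-ranked spots below, because a spot is a small region that can hold several cell types.

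The series asked how S1PR2, a sphingosine-1-phosphate receptor, in keratinocytes acts in psoriasis-like inflammation. Both mice carried floxed S1pr2 alleles, were 8 weeks old, and received 62.5 mg of 5% imiquimod (IMQ) cream daily for 7 days on depilated back skin. The S1pr2fl/fl K14-Cre mouse also carried Cre under the keratin 14 promoter, which drives expression in basal keratinocytes and in the outer cell layer of the skin appendages, sebaceous glands included. Each genotype was represented by 1 library from 1 section (10 μm, formalin-fixed and paraffin-embedded), so genotype, animal, section and library cannot be told apart and no test between the genotypes was possible.

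Sebaceous glands open into the hair canal and release sebum by the breakdown of whole cells. As sebocytes move from the basal rim to the centre of the gland they fill with droplets of wax esters, triglycerides, squalene and sterol esters, which are built from fatty acids that are elongated, desaturated, hydroxylated and reduced to alcohols within the same cell. Loss of sebaceous glands is a known feature of psoriatic skin.

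The S1pr2fl/fl section held 5315351 UMIs in 1282 spots over tissue and the S1pr2fl/fl K14-Cre section 2845826 UMIs in 981 spots. Gland-ranked spots of the S1pr2fl/fl section were deep, with a median of 6670.5 UMIs against 4112 in the remaining spots. The medians of the S1pr2fl/fl K14-Cre section were 2403.5 and 2375 UMIs. Levels are given as CPM, UMIs per 1000000 UMIs of the same group of spots, and folds as the CPM of gland-ranked over remaining spots of the same section. All 95% intervals are exact (Poisson for a level, conditional binomial for a fold) and cover counting error only, since spots of 1 section are not replicates.

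S1pr2, the gene deleted by Cre, was too rare to check the labels in these spots. It had 11 UMIs in the gland-ranked spots of the S1pr2fl/fl section (0.687-fold of the remaining spots, 95% interval 0.335 to 1.27) and 5 in those of the S1pr2fl/fl K14-Cre section (1.11-fold, 0.346 to 2.78). Whether its probe lies in the deleted part is not given in the sources used here.

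The choice of spots fixed the direction of the rule genes, so their values in the chosen spots are a description. Together they reached 7295 CPM in the gland-ranked and 750 CPM in the remaining spots of the S1pr2fl/fl section, and 3452 and 199 CPM in the S1pr2fl/fl K14-Cre section. The most abundant was Fa2h, which hydroxylates fatty acids at the second carbon, with 1457 UMIs in the gland-ranked S1pr2fl/fl spots and 280 in the gland-ranked S1pr2fl/fl K14-Cre spots. Far2, which reduces fatty acyl-CoA to the alcohols of wax esters, followed with 1075 and 170 UMIs. Soat1, which esterifies cholesterol, had 439 and 111 UMIs, and the retinoid-responsive gene Rarres1 had 409 and 87. Awat1, which joins fatty alcohols to acyl chains, had 231 and 72 UMIs, the lipid transfer protein gene Sec14l4 had 189 and 72, and Scd3, a fatty acid desaturase, had 98 and 31. All 7 genes were thus present in both sections, on fewer UMIs in the S1pr2fl/fl K14-Cre section.

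The border of the choice did not fall in a gap. The spot of rank 80 in the S1pr2fl/fl section had a rule-gene share of 3436 CPM and that of rank 81 had 3396 CPM. The same ranks of the S1pr2fl/fl K14-Cre section had 1692 CPM (4 of 2364 UMIs) and 1691 CPM (6 of 3549 UMIs). Members held 3 to 273 rule-gene UMIs (median 36) in the S1pr2fl/fl section and 1 to 57 (median 7) in the S1pr2fl/fl K14-Cre section. Of all rule-gene UMIs in kept spots, 52.3% and 61.5% lay in the members, so a large part of the signal fell outside the 80 spots, more so in the S1pr2fl/fl section.

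Whether the S1pr2fl/fl K14-Cre section held gland signal or background only was read from each rule gene in spots ranked without it. Each of the 7 genes, left out of the ranking in turn, was higher in the 80 spots ranked by the other 6 in both sections. The folds of the S1pr2fl/fl section ran from 5.08 (95% interval 4.21 to 6.11) for Sec14l4 to 9.55 (7.11 to 12.9) for Scd3. Those of the S1pr2fl/fl K14-Cre section ran from 5.13 (3.33 to 7.75) for Awat1 to 12.2 (8.69 to 17.2) for Rarres1. No interval reached 1. Fa2h, the most abundant, was 9.51-fold higher in the S1pr2fl/fl section (2473 against 260.0 CPM) and 10.6-fold higher in the S1pr2fl/fl K14-Cre section (871 against 82.1 CPM).

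**Figure D1:**
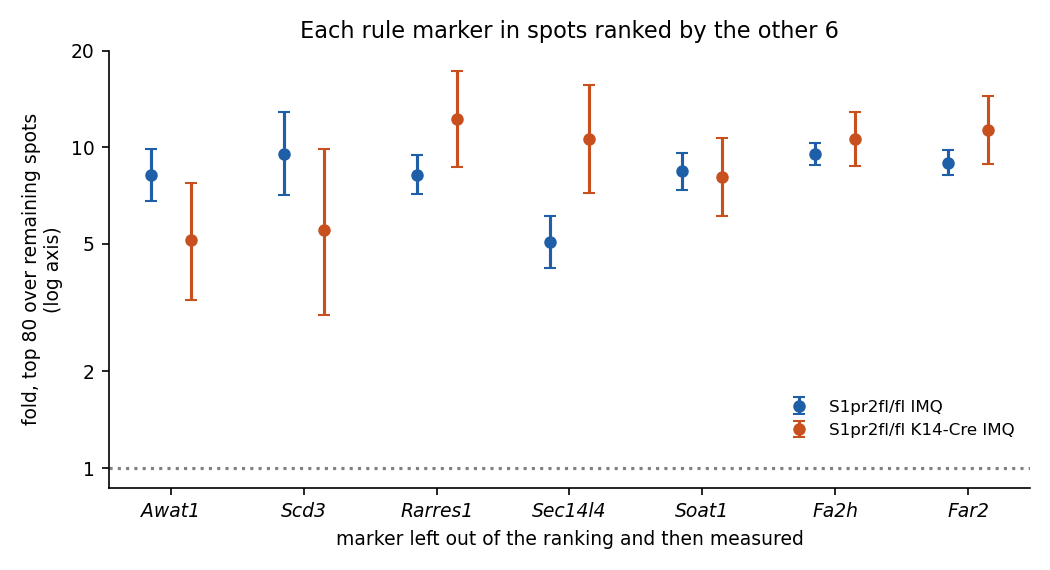
Fold of each rule gene (log axis) in the 80 spots ranked by the other 6 genes over the remaining spots, with exact 95% intervals for counting error, for the S1pr2fl/fl (blue) and S1pr2fl/fl K14-Cre (orange) sections. All 14 points lie between 5.08 and 12.2 and no interval reaches 1; the intervals of Awat1 and Scd3 are the widest in the S1pr2fl/fl K14-Cre section, where these genes had 35 and 19 UMIs in the ranked spots.

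For comparison, 1226 chemosensory receptor genes, which skin is not known to use as a class, served as background. Their summed level was 1.16-fold higher (1.10 to 1.22) in the gland-ranked spots of the S1pr2fl/fl section and 1.51-fold higher (1.45 to 1.58) in those of the S1pr2fl/fl K14-Cre section. The mean level of a receptor gene in gland-ranked spots was 2.52 CPM in the S1pr2fl/fl and 8.64 CPM in the S1pr2fl/fl K14-Cre section. The folds of the left-out rule genes were larger than these in both sections, and single genes of a few CPM in the S1pr2fl/fl K14-Cre section are near that mean.

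Gene by gene, the chosen spots were more thinly covered in the S1pr2fl/fl K14-Cre section. At least 3 different rule genes were seen in 72 of 80 members of the S1pr2fl/fl section (27.8% of its remaining spots) and in 51 of 80 members of the S1pr2fl/fl K14-Cre section (3.34% of its remaining spots). A single rule gene carried the choice in 3 and 13 members. With every spot thinned to 500 UMIs, at least 2 rule-gene UMIs were seen in 78.8% and 36.3% of members and in 3.64% and 0.346% of the remaining spots. The members were chosen by these UMIs, so the gap to the remaining spots follows from the choice. Both the number of sebocytes under a spot and the RNA per sebocyte enter these values and cannot be told apart.

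Position was not part of the rule. It was set against that of 80 keratinocyte-ranked spots (highest share of Krt5, Krt14, Krt1 and Krt10 among the remaining spots) and 80 adipocyte-ranked spots (Adipoq, Plin1, Lep and Cidec) per section. Of the 80 members, 61.3% in the S1pr2fl/fl section and 88.8% in the S1pr2fl/fl K14-Cre section lay within 3 array steps of a keratinocyte-ranked spot. The same held for 30.7% and 36.2% of the other remaining spots. Within 3 steps of an adipocyte-ranked spot lay 80% and 76.3% of the members, beside 64.4% and 70.1% of the other remaining spots. In the S1pr2fl/fl section more members thus lay within 3 steps of an adipocyte-ranked than of a keratinocyte-ranked spot, with a median of 3 steps to both, and the median was 2 steps to both in the S1pr2fl/fl K14-Cre section. The members also lay together. Of the array neighbours of members, 30.3% and 25.4% were themselves members, against 6.05% and 7.47% of the neighbours of other spots. A member neighbour was present for 70 of 80 members of the S1pr2fl/fl section and 58 of 80 of the S1pr2fl/fl K14-Cre section.

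**Figure D2:**
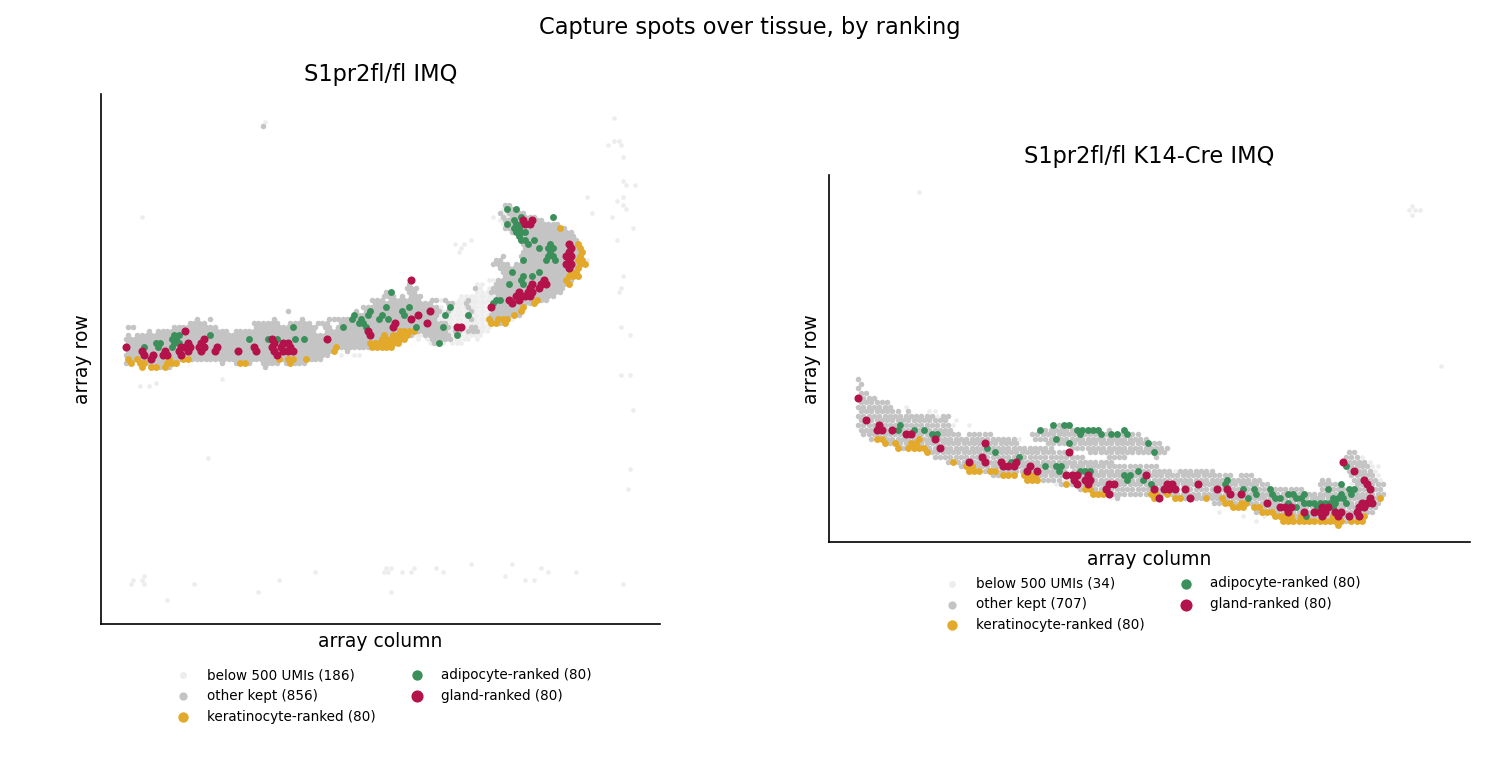
Capture spots over tissue at their array positions (columns and rows of the array, no length unit drawn) in the S1pr2fl/fl (left) and S1pr2fl/fl K14-Cre (right) sections, coloured by class. Gland-ranked spots (red, 80 in each) form small groups, with 61.3% and 88.8% of them within 3 array steps of a keratinocyte-ranked spot (yellow) and 80% and 76.3% within 3 steps of an adipocyte-ranked spot (green).

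Joined members formed 6 groups of 5 or more spots in the S1pr2fl/fl section, holding 43 spots, and 5 such groups in the S1pr2fl/fl K14-Cre section, holding 29 spots. Isolated members numbered 10 and 22. Sebocyte genes outside the rule, described next, reached 5096 CPM in the larger groups and 5304 CPM in the isolated spots of the S1pr2fl/fl section. A single isolated spot held 196 of the 302 list UMIs there, and without it the other 9 were at 3977 CPM, below the larger groups. The levels were 5970 and 3661 CPM in the S1pr2fl/fl K14-Cre section, where the isolated spots were at 3408 CPM without the deepest of them. The isolated S1pr2fl/fl K14-Cre members therefore held a lower level of the list than the grouped ones, yet a higher one than the remaining spots of that section (1208 CPM). Adipocyte-ranked spots of that section were at 2934 CPM, not far below the isolated members. Single isolated spots ranged from 0 to 8449 CPM.

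Sebocyte genes outside the rule were higher in the gland-ranked spots of both sections. This list of 17 genes had 14 measured members (Krt79, Aldh3b2 and Hsd3b6 were not analysed here). Its summed level was 4821 CPM in the gland-ranked and 1386 CPM in the remaining spots of the S1pr2fl/fl section, a fold of 3.48 (3.32 to 3.64). It was 4706 and 1208 CPM in the S1pr2fl/fl K14-Cre section, a fold of 3.90 (3.64 to 4.17). Against the remaining spots within 2 array steps only, the folds were 3.21 and 3.37. Among list genes counted 50 times or more in a section, 8 of 9 were at least 2-fold higher in the S1pr2fl/fl section, where 5.23% of all 10759 such genes were, and 5 of 6 in the S1pr2fl/fl K14-Cre section, where 12.0% of 9506 were. The median log2 fold over these members was 1.92 and 1.88, beside 0.10 and 0.09 over all genes. The limit of 50 UMIs counted gland-ranked and remaining spots together, here and for the lists below. A rare gene could therefore pass it through its high level in gland-ranked spots. Cidea did so in the S1pr2fl/fl K14-Cre section, with 33 UMIs in gland-ranked and 41 in remaining spots. Elovl3, on 16 UMIs in gland-ranked spots, did so in that section too. The counts past 2-fold are thus in part set by the limit.

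Scd1, the main stearoyl-CoA desaturase of skin, supplied the largest part of the list. Its level was 2596 CPM in gland-ranked and 554 CPM in remaining S1pr2fl/fl spots, 4.69-fold higher (4.39 to 5.00). It was 3347 and 695 CPM in the S1pr2fl/fl K14-Cre section, 4.81-fold higher (4.42 to 5.23). Without Scd1 the log2 fold of the list was 1.42 in the S1pr2fl/fl and 1.41 in the S1pr2fl/fl K14-Cre section, so the list stayed more than 2-fold higher without its leading gene.

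The lipid droplet protein gene Cidea was 5.13-fold higher (4.09 to 6.43) in the S1pr2fl/fl section, with 125 UMIs in members. It was 8.77-fold higher (5.37 to 14.2) in the S1pr2fl/fl K14-Cre section, on 33 UMIs. Elovl3, an elongase of saturated fatty acids, was 3.79-fold and 4.98-fold higher, on 32 and 16 UMIs. The microsomal glutathione transferase gene Mgst1 was 3.66-fold higher (3.26 to 4.10) in the S1pr2fl/fl but 2.13-fold (1.68 to 2.67) in the S1pr2fl/fl K14-Cre section, and Apoc1, a lipoprotein component, was 2.22-fold and 2.82-fold higher. Pparg, the nuclear receptor that drives sebocyte differentiation, had 24 UMIs in S1pr2fl/fl members (2.80-fold, 1.69 to 4.48) and 6 in S1pr2fl/fl K14-Cre members. Awat2, a second wax synthase, had only 8 and 9 UMIs in members. None of its UMIs lay in the keratinocyte-ranked or adipocyte-ranked spots of either section. Acsbg1, an acyl-CoA synthetase gene, was the list member with at least 50 UMIs that stayed below 2-fold in both sections (1.32 and 1.94). Plin5 had 0 UMIs in the members of both sections, and Krt7 had 1 and 0.

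In sum, the sebocyte list was also higher in gland-ranked than in keratinocyte-ranked or adipocyte-ranked spots, though not for every gene. It was 5.88-fold higher than in keratinocyte-ranked spots in the S1pr2fl/fl and 4.14-fold higher in the S1pr2fl/fl K14-Cre section. Against adipocyte-ranked spots the folds were smaller, 2.33 and 1.60. Part of the list is shared with fat: Scd1 reached 1222 CPM in adipocyte-ranked spots of the S1pr2fl/fl and 1862 CPM in those of the S1pr2fl/fl K14-Cre section. Cers4, which makes ceramides and is outside the list, and Cidea were lower there than in members, at 217 and 46.4 CPM in the S1pr2fl/fl section. These were near their 176 and 45.6 CPM over all remaining spots. In the S1pr2fl/fl K14-Cre section they were at 67.3 and 17.9 CPM. The list gene Mgst1 went the other way in that section, at 382 CPM in members and 597 CPM in adipocyte-ranked spots (0.640-fold, 0.484 to 0.841). Apoc1, also of the list, was at 1.19-fold (0.874 to 1.63) there. In the S1pr2fl/fl section Mgst1 and Apoc1 were 2.20-fold and 2.77-fold higher in members than in adipocyte-ranked spots.

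Sebocyte genes outside the rule were lower at each step down the ranking of the spots, except between ranks 61 to 80 and 81 to 120 of the S1pr2fl/fl K14-Cre section, where they were nearly level. The S1pr2fl/fl levels of the list were 6979 CPM in ranks 1 to 20, 4860 in ranks 21 to 40, 3382 in ranks 41 to 60 and 2999 in ranks 61 to 80. The corresponding S1pr2fl/fl K14-Cre levels were 7569, 4672, 3694 and 2915 CPM. Ranks 81 to 120 were still at 2691 and 2873 CPM, and all spots after rank 160 at 1262 and 1099 CPM. No step fell at rank 80. The levels of the list were near each other in the sections through rank 120, but this rested on Scd1. Without it they were 3118 CPM in the S1pr2fl/fl and 1810 CPM in the S1pr2fl/fl K14-Cre section in ranks 1 to 20, and 2225 (2101 to 2355) and 1359 CPM (1215 to 1515) over all members. The order of ranks 21 to 80 in the S1pr2fl/fl K14-Cre section was then not downward, at 1054, 1281 and 1263 CPM. Adipocyte genes ran the other way, from 293 CPM in ranks 1 to 20 to 2039 CPM after rank 160 in the S1pr2fl/fl section, and from 806 to 3328 CPM in the S1pr2fl/fl K14-Cre section. Total UMIs enter both the ranking and these levels.

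**Figure D3:**
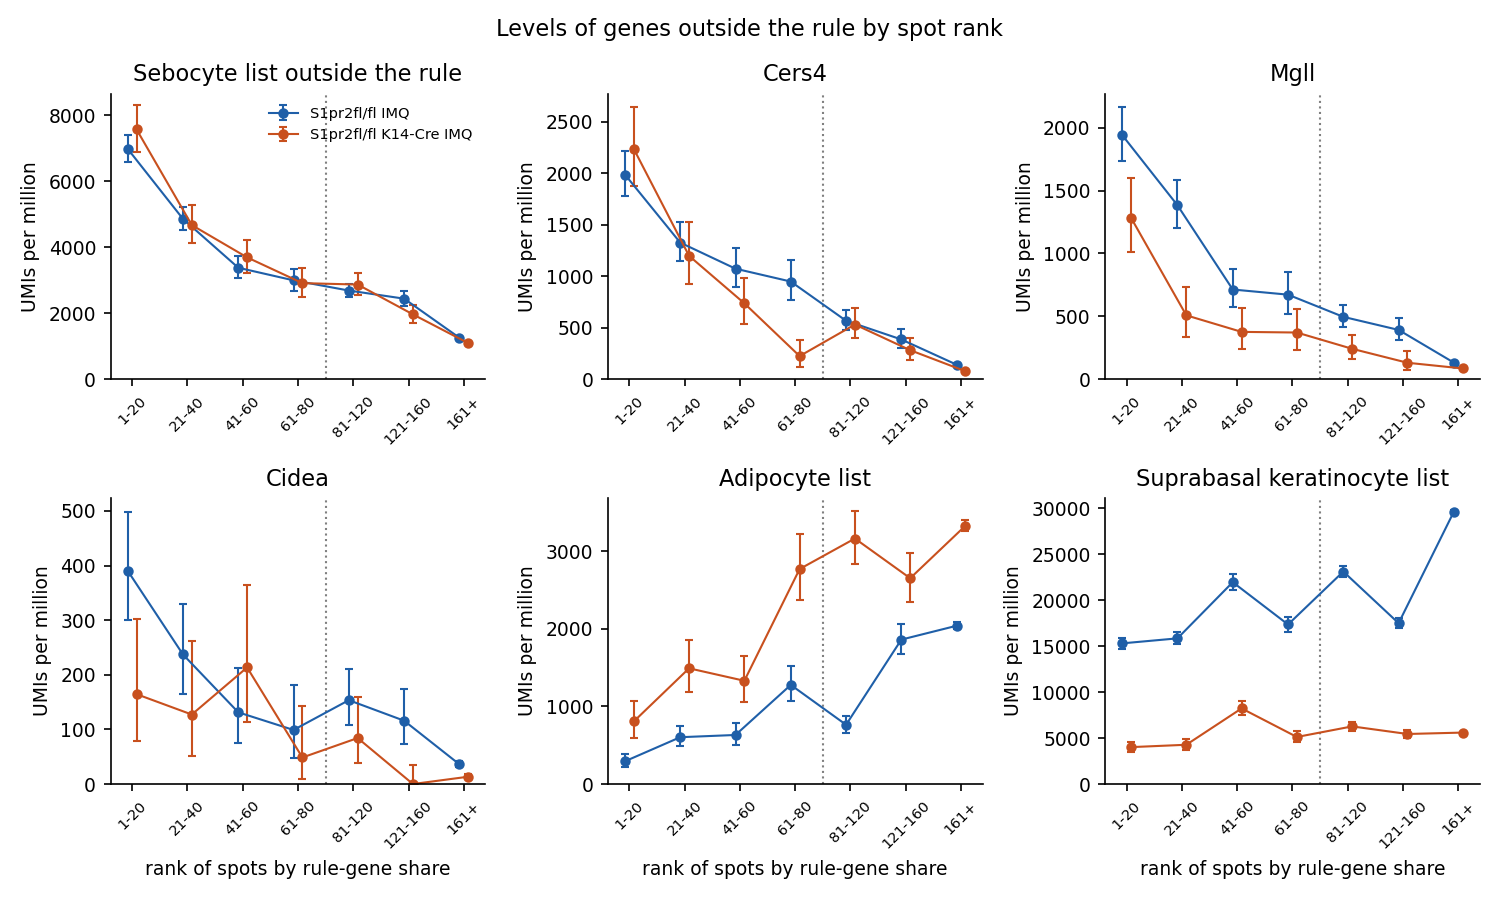
CPM of genes outside the rule in spots binned by rank of rule-gene share, for the S1pr2fl/fl (blue) and S1pr2fl/fl K14-Cre (orange) sections, with exact 95% Poisson intervals; the dotted line marks rank 80. The sebocyte list, Cers4 and Mgll are highest in ranks 1 to 20 in both sections and lowest after rank 160, while the adipocyte list is lowest in ranks 1 to 20.

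Genes that build and modify fatty acids were higher in sum, with unequal folds. Among list genes that passed the limit of 50 UMIs, 6 of 15 were at least 2-fold higher in each section, beside the 5.23% and 12.0% of all genes. At least 2-fold lower were 1 of 15 in the S1pr2fl/fl section (7.39% of all genes), Fads2 on 1 UMI, and 0 of 15 in the S1pr2fl/fl K14-Cre section (15.1% of all genes). The summed level of the list was 2.86-fold (2.77 to 2.95) and 2.95-fold higher (2.81 to 3.10). Against adipocyte-ranked spots it was 2.06-fold (1.93 to 2.19) and 1.30-fold higher (1.21 to 1.39). In S1pr2fl/fl K14-Cre members Scd1, which also led the sebocyte list, supplied 798 of 1957 UMIs. Without the leading gene, Elovl4 in the S1pr2fl/fl and Scd1 in the S1pr2fl/fl K14-Cre section, the folds over remaining spots were 2.37 and 2.33. Elovl4, which elongates very long chain fatty acids, was the most abundant gene of the list in S1pr2fl/fl members, at 4415 CPM in gland-ranked and 1123 CPM in remaining spots (3.93-fold, 3.74 to 4.13). It stood at 2064 and 313 CPM in the S1pr2fl/fl K14-Cre section (6.60-fold, 5.89 to 7.39). Acacb, an acetyl-CoA carboxylase, was 4.15-fold and 3.71-fold higher. Fasn, the fatty acid synthase, was 1.29-fold higher (1.13 to 1.46) in S1pr2fl/fl members and 1.00-fold (0.827 to 1.21) in S1pr2fl/fl K14-Cre members. Its highest level of the regions compared was in adipocyte-ranked spots, at 1249 and 1961 CPM, against 522 and 512 CPM in members.

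The folds of Elovl5, Elovl7 and Me1 were unlike in the sections, with no test possible. Elovl5 was 4.44-fold higher (3.55 to 5.52) in the S1pr2fl/fl and 1.19-fold (0.661 to 1.99) in the S1pr2fl/fl K14-Cre section, on 126 and 16 UMIs in members. Elovl7 went the other way, at 1.74-fold and 3.79-fold. Me1, the malic enzyme that supplies NADPH for fatty acid synthesis, was 1.52-fold (1.22 to 1.86) and 0.519-fold (0.245 to 0.973), on 108 and 10 UMIs.

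Ceramide and 2-hydroxy lipid genes were uneven. Of 16 list members that reached 50 UMIs, 3 were at least 2-fold higher in the S1pr2fl/fl section, and 2 of 15 in the S1pr2fl/fl K14-Cre section, to be read beside the 5.23% and 12.0% of all genes. The list was 1.63-fold (1.55 to 1.71) and 1.95-fold higher (1.81 to 2.11) in sum, with 749 of 1912 and 261 of 770 member UMIs from Cers4. Without Cers4 it was 1.08-fold (1.01 to 1.14) and 1.38-fold (1.25 to 1.51), the latter below the 1.51-fold of the receptor genes. Cers4 was the exception in size, at 1402 CPM in gland-ranked and 176 CPM in remaining S1pr2fl/fl spots (7.97-fold, 7.21 to 8.80). It stood at 1095 and 107 CPM in the S1pr2fl/fl K14-Cre section (10.3-fold, 8.64 to 12.2). A Cers4 UMI was found in 92.5% of S1pr2fl/fl members and 36.0% of the remaining spots, and in 67.5% and 15.1% in the S1pr2fl/fl K14-Cre section. At 500 UMIs per spot these shares were 48.8% and 8.17%, and 32.5% and 2.77%. Cers3, the ceramide synthase of the epidermal barrier, was below 1 in both sections, at 0.629-fold (0.472 to 0.823) and 0.758-fold (0.462 to 1.18). Degs1, a ceramide desaturase gene and the most abundant of the list over all kept spots, was 1.17-fold and 2.03-fold higher.

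Cholesterol synthesis genes were higher in the gland-ranked spots of both sections. Of the 16 measured genes (Fdps was not analysed here), all with at least 50 UMIs in the S1pr2fl/fl section, 9 were at least 2-fold higher there and none was at least 2-fold lower. Of 15 such genes in the S1pr2fl/fl K14-Cre section, 10 were higher and none lower. The shares over all genes were 5.23% and 12.0% higher and 7.39% and 15.1% lower. The summed level was 6509 CPM in gland-ranked and 2102 CPM in remaining S1pr2fl/fl spots (3.10-fold, 2.98 to 3.22), and 5406 and 1555 CPM in the S1pr2fl/fl K14-Cre section (3.48-fold, 3.26 to 3.70). The median log2 fold was 1.16 and 1.45, beside 0.10 and 0.09 over all genes. Within 2 array steps the folds were 2.72 and 2.55, and against keratinocyte-ranked spots 2.53 and 1.54.

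Msmo1, the sterol C4-methyl oxidase, was at 1033 CPM in gland-ranked and 239 CPM in remaining S1pr2fl/fl spots (4.33-fold, 3.90 to 4.80), and at 524 and 127 CPM in the S1pr2fl/fl K14-Cre section (4.12-fold, 3.32 to 5.07). Insig1, a feedback regulator of the pathway, was 2.77-fold and 3.88-fold higher. Hmgcs1, an early synthase of the pathway, was 2.44-fold and 3.70-fold higher, Lss, which closes the sterol rings, 2.59-fold and 3.03-fold, Cyp51 2.69-fold and 2.74-fold, and Nsdhl 2.05-fold and 2.93-fold. Squalene epoxidase (Sqle), which draws squalene into sterols, was 1.33-fold (1.12 to 1.58) and 2.37-fold (1.75 to 3.15). Sc5d, a late desaturase, was at 0.996-fold and 0.757-fold, with intervals that spanned 1.

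Because this list was higher in sum in both sections, the 250 bases before the starts of its genes were searched for letters of sites known in sterol genes. RefSeq windows (GRCm38.p6) were at hand for 11 of the 17 listed genes. The CCAAT box (CCAAT or its complement ATTGG, on either strand) was present in at least 1 window of all 11, against 37.5% of 27025 genes and 39.6% of the 8805 genes with a window and at least 50 UMIs in a section. Sc5d, which was not higher in members, is among the 11 and held 1 box, so the box was not confined to the higher genes. Letters of the sterol regulatory site TCACNCCAC, on either strand, were present before 1 of 11, Hmgcs1, against 1.22% of all genes. Of the rule genes, 5 had windows, of which 1 held a CCAAT box and 0 the sterol site. Windows of genes at least 2-fold higher in both sections are shown 5′ to 3′ along the gene, with these letters in capitals: Hmgcs1 (chr13:119690101-119690350, + strand), with both motifs, Msmo1 (chr8:64733579-64733828, - strand), with 3 CCAAT boxes, and Lss (chr10:76531355-76531604, + strand), with 1.
Hmgcs1: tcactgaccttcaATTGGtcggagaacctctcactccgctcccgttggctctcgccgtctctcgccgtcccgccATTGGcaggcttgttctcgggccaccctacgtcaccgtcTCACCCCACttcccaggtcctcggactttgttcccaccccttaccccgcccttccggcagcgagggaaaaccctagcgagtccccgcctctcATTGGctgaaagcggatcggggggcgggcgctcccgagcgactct
Msmo1: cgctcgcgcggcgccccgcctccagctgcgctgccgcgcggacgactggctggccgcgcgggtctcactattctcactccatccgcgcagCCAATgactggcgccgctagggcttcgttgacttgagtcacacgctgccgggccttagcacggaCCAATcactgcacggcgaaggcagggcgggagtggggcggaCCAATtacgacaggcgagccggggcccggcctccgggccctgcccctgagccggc
Lss: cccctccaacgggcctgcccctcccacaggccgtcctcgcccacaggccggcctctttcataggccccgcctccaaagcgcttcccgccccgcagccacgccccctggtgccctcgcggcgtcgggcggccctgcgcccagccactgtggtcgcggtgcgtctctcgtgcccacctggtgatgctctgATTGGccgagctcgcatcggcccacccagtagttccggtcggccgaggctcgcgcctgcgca
A match of letters is a description of the window and not of binding, and a window without them says nothing of the factors.

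Wax and triglyceride genes outside the rule gave a mixed picture. The list was at 1.47-fold (1.36 to 1.59) and 1.44-fold (1.25 to 1.66) in sum, beside 1.16-fold and 1.51-fold for the receptor genes, with 2 of 9 members at least 2-fold higher in the S1pr2fl/fl (5.23% of all genes) and 3 of 9 in the S1pr2fl/fl K14-Cre section (12.0% of all genes). Far1, the second fatty acyl-CoA reductase, was 3.62-fold (3.12 to 4.19) and 2.31-fold higher (1.59 to 3.30). Dgat1, which completes triglycerides, was 2.73-fold and 4.63-fold higher, whereas Dgat2, a second enzyme of that step, was at 0.607-fold (0.488 to 0.748) and 0.667-fold (0.408 to 1.04). Agpat2, needed for fat tissue, was at 0.763-fold and 1.11-fold, both with intervals that spanned 1.

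Lipid droplet genes lay on both sides of 1. At least 2-fold higher were 5 of 15 and at least 2-fold lower 3 of 15 in the S1pr2fl/fl section (5.23% and 7.39% of all genes), with 7 between. In the S1pr2fl/fl K14-Cre section 4 of 14 were higher and 4 lower (12.0% and 15.1%), with 6 between. Plin2, which coats droplets, was 4.13-fold (3.69 to 4.62) and 3.57-fold higher (2.84 to 4.45), and Hilpda, a droplet-associated inhibitor of lipolysis, 3.21-fold and 5.02-fold. Mgll, the monoacylglycerol lipase, was at 1267 CPM in gland-ranked and 163 CPM in remaining S1pr2fl/fl spots (7.76-fold, 6.99 to 8.61), and at 638 and 95.4 CPM in the S1pr2fl/fl K14-Cre section (6.68-fold, 5.42 to 8.21). Plin1, the droplet coat protein gene of fat cells, was at 0.325-fold (0.191 to 0.518) and 0.276-fold (0.100 to 0.609), and hormone-sensitive lipase, Lipe, at 0.465-fold and 0.379-fold.

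Peroxisome genes, which serve fatty acid breakdown and ether lipid synthesis, were 1.82-fold (1.70 to 1.95) and 1.38-fold higher (1.22 to 1.54) in sum, the latter not above the 1.51-fold of the receptor genes in the same spots. Of these, 6 of 13 were at least 2-fold higher in the S1pr2fl/fl section, where 5.23% of all genes were, and 2 of 12 in the S1pr2fl/fl K14-Cre section, near the 12.0% of all genes. Pex5, the import receptor, was 2.95-fold and 3.28-fold higher, and Pex11a, which acts in peroxisome division, 2.24-fold and 2.39-fold. Pex3 was 4.38-fold higher (3.32 to 5.74) on 82 UMIs in S1pr2fl/fl members and at 0.654-fold (0.130 to 2.02) on 3 UMIs in S1pr2fl/fl K14-Cre members. Among fatty acid uptake, activation and PPAR target genes, 2 of 12 were at least 2-fold higher and 1 lower in the S1pr2fl/fl section (5.23% and 7.39% of all genes), and 3 of 11 higher and 2 lower in the S1pr2fl/fl K14-Cre section (12.0% and 15.1%). The counts of lower genes were near those shares. In this list Slc27a4 was 3.27-fold and 5.83-fold higher and Acsl5 2.96-fold and 3.04-fold. Fabp5, an abundant keratinocyte and sebocyte fatty acid binding protein gene, was 1.08-fold and 1.71-fold higher.

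Across all these lipid and gland lists, 102 genes outside the rule had at least 50 UMIs in both sections. Of these, 37 were at least 2-fold higher in the S1pr2fl/fl and 34 in the S1pr2fl/fl K14-Cre section, and 27 in both. The 27 were 73.0% of the former and 79.4% of the latter. Over all 9079 genes outside the rule with at least 50 UMIs in both sections, 394 and 1037 were at least 2-fold higher, and 181 in both, that is 45.9% and 17.5%. The lipid genes at least 2-fold higher in both included genes of elongation (Elovl3, Elovl4), desaturation (Scd1), sterol synthesis, lipid droplets and fatty acid transport (Slc27a4). Among them, Elovl3 and Cidea passed the UMI limit in the S1pr2fl/fl K14-Cre section only with their gland-ranked spots counted, so these counts are in part set by the limit.

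**Figure D4:**
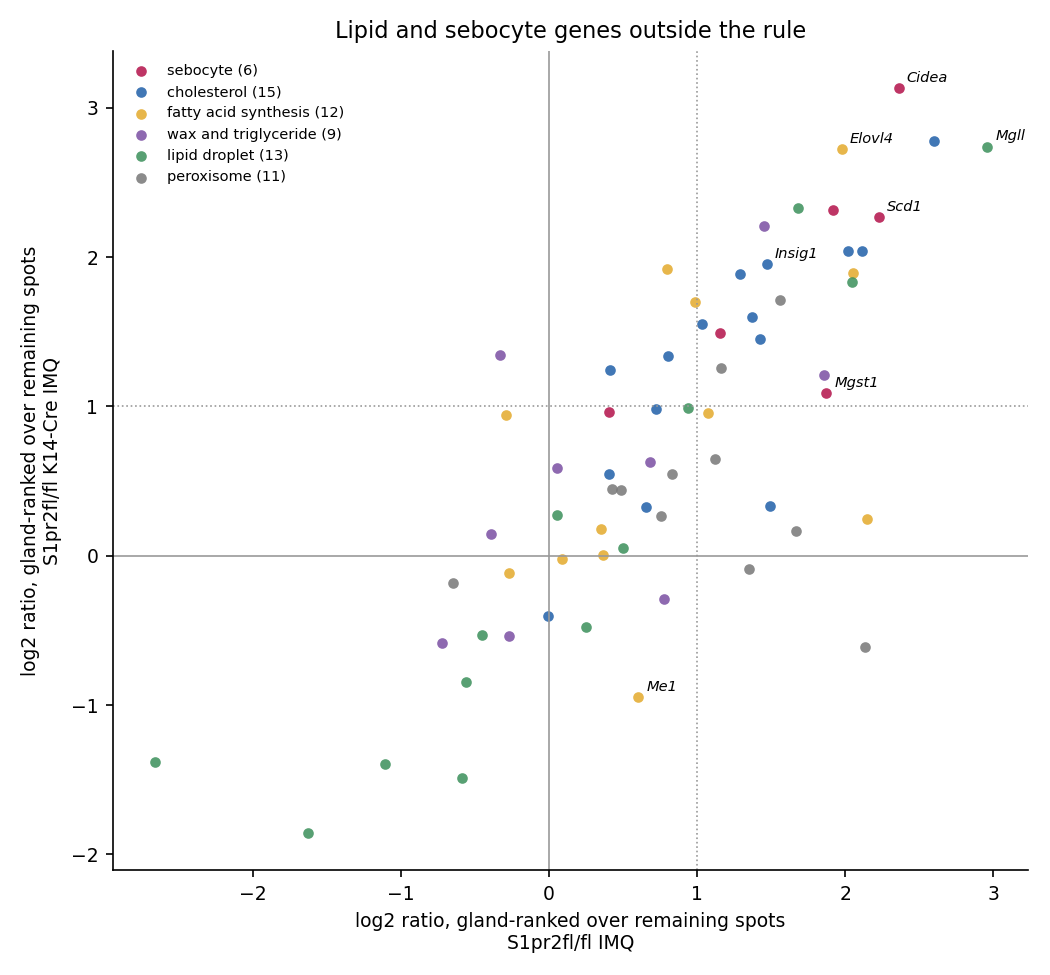
Log2 ratio of gland-ranked over remaining spots in the S1pr2fl/fl (horizontal) and S1pr2fl/fl K14-Cre (vertical) section for lipid and sebocyte genes outside the rule with at least 50 UMIs in each section, 1 point per gene, coloured by list (a gene in 2 lists is drawn once). Solid lines mark equal levels and dotted lines 2-fold; Cidea, Mgll, Elovl4 and Scd1 lie at the upper right, and Me1 at 0.60 and -0.95.

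Regulators of the gland were measured on few UMIs, and 6 of 12 were at least 2-fold higher in the S1pr2fl/fl and 2 of 10 in the S1pr2fl/fl K14-Cre section, beside 5.23% and 12.0% of all genes. Sox9, a stem cell factor of the follicle and gland, was 2.91-fold (2.23 to 3.76) and 2.72-fold higher (1.56 to 4.55), and the receptor gene Fgfr2 2.07-fold and 2.21-fold. Lrig1, a marker of stem cells at the gland opening, was 2.15-fold (1.66 to 2.77) in the S1pr2fl/fl and 1.13-fold (0.548 to 2.11) in the S1pr2fl/fl K14-Cre section. The melanocortin receptor gene Mc5r, found in differentiated sebocytes, had 24 UMIs in members and 17 in the remaining S1pr2fl/fl spots, and 4 and 13 in the S1pr2fl/fl K14-Cre section. Srebf1, the transcription factor of fatty acid synthesis, was at 0.898-fold and 1.52-fold, and Srebf2, that of sterol synthesis, at 1.31-fold and 1.21-fold. These transcripts were therefore nearer to equal levels than most of the sterol genes.

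Markers of other cell types showed what else lay under the gland-ranked spots. The adipocyte list stood at 642 CPM in gland-ranked and 1965 CPM in remaining S1pr2fl/fl spots (0.327-fold, 0.292 to 0.364), and at 1606 and 3294 CPM in the S1pr2fl/fl K14-Cre section (0.488-fold, 0.439 to 0.540). Its most abundant gene was Cfd. Of its genes with at least 50 UMIs, 6 of 9 were at least 2-fold lower in the S1pr2fl/fl section (7.39% of all genes) and 4 of 8 in the S1pr2fl/fl K14-Cre section (15.1% of all genes), and 0 were at least 2-fold higher in either. Leptin, Lep, had 5 UMIs in S1pr2fl/fl and 0 in S1pr2fl/fl K14-Cre members. Fat cell signal was thus lower in the members than in the remaining spots.

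The skeletal muscle list, led by Acta1, was at 2212 CPM in gland-ranked and 20972 CPM in remaining S1pr2fl/fl spots, and at 6543 and 66234 CPM in the S1pr2fl/fl K14-Cre section. All 8 genes were at least 2-fold lower in each, beside 7.39% and 15.1% of all genes. The remaining spots of the S1pr2fl/fl K14-Cre section therefore held a larger share of muscle RNA, and every other CPM there is relative to a total that includes it. Within 2 array steps the muscle list was at 0.242-fold and 0.219-fold. The smooth muscle list was at 0.260-fold and 0.206-fold, most of it Des, which skeletal muscle also makes (0.924-fold, 0.793 to 1.07, and 0.698-fold, 0.544 to 0.883, without Des), and endothelial genes at 0.754-fold (0.581 to 0.965) and 0.898-fold (0.666 to 1.19). The direction of the endothelial list depended on the processing, with log2 folds of 0.33 and 0.63 when spots were thinned to 1000 UMIs and -1.16 and -0.52 with the top 40 spots. Fibroblast genes were at 0.931-fold and 0.809-fold, macrophage genes at 0.716-fold and 0.739-fold and hemoglobin and platelet genes at 0.206-fold and 0.400-fold, so dermal matrix RNA was present in members at nearly the level of the remaining spots.

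Keratinocyte genes depended on the layer and the section. The basal list, led by Krt14, was at 17954 CPM in gland-ranked and 20424 CPM in remaining S1pr2fl/fl spots (0.879-fold, 0.861 to 0.898), and at 12520 and 9602 CPM in the S1pr2fl/fl K14-Cre section (1.30-fold, 1.25 to 1.35). Against spots within 2 array steps it was below 1 in both, at 0.784-fold and 0.903-fold. Without Krt14 the list was above 1 in both, at 1.30-fold (1.25 to 1.35) and 1.70-fold (1.59 to 1.82). Krt15, a keratin of basal and follicle stem cells, was higher in both, at 2.72-fold (2.43 to 3.05) and 4.25-fold (3.50 to 5.14). The suprabasal list was at 0.603-fold (0.590 to 0.616) and 0.968-fold (0.913 to 1.02), and Krt1 and Krt10, its early differentiation keratins, were near one another in both sections, at 0.528-fold and 0.547-fold and at 0.529-fold and 0.488-fold. Keratins and alarmins of activated epidermis were at 0.524-fold (0.514 to 0.534) and 0.827-fold (0.789 to 0.866). The part of keratinocyte RNA in the lipid gene values was not tested. Lipid genes differed in their levels in keratinocyte-ranked spots. Cers4 had 4 and 14 UMIs there, Mgll stood at 30.8 and 28.6 CPM and Scd1 at 35.5 and 290 CPM. Elovl4 was at 1234 and 593 CPM, and Fabp5 at 10241 and 12955 CPM, so that members held 0.587-fold and 0.405-fold of its level there. Acsbg1 was likewise lower in members, at 0.772-fold and 0.494-fold. In sum, members held 0.806-fold and 0.562-fold of the fatty acid uptake and PPAR target list and 1.13-fold and 0.959-fold of the ceramide list in keratinocyte-ranked spots.

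Hair follicle genes, from the structure each gland is attached to, were 1.38-fold (1.21 to 1.57) and 1.62-fold higher (1.36 to 1.92) in sum. The receptor genes were at 1.16-fold and 1.51-fold. Cd34, the most abundant list gene, held 35.4% and 38.0% of the list UMIs over all kept spots. In members it held 62 of 267 and 20 of 158, so it lowered both sums. A sum without Cd34 is not given here. Without Sox9, also listed as a gland regulator, the S1pr2fl/fl value was 1.13-fold (0.961 to 1.31), an interval that spanned 1. Without Krt75 the S1pr2fl/fl K14-Cre value was 1.32-fold (1.08 to 1.62), below that of the receptor genes. Krt75, a keratin of the follicle's companion layer, was 1.59-fold (1.22 to 2.05) and 3.24-fold higher (2.30 to 4.48). The hair keratin genes Krt31, Krt33a and Krt35 had 2, 0 and 4 UMIs in S1pr2fl/fl members, and 1, 4 and 7 in S1pr2fl/fl K14-Cre members. Of the list genes with at least 50 UMIs, 1 of 5 was at least 2-fold higher and 1 lower in the S1pr2fl/fl section (5.23% and 7.39% of all genes), and 4 of 6 were higher and 1 lower in the S1pr2fl/fl K14-Cre section (12.0% and 15.1% of all genes). The median log2 fold over these genes was 0.32 and 1.57. The transcription factor gene Msx2 had 3 and 20 UMIs in members (0.459-fold, 0.0920 to 1.41, and 3.52-fold, 2.01 to 5.90), and the signal gene Shh 2 and 9.

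**Figure D5:**
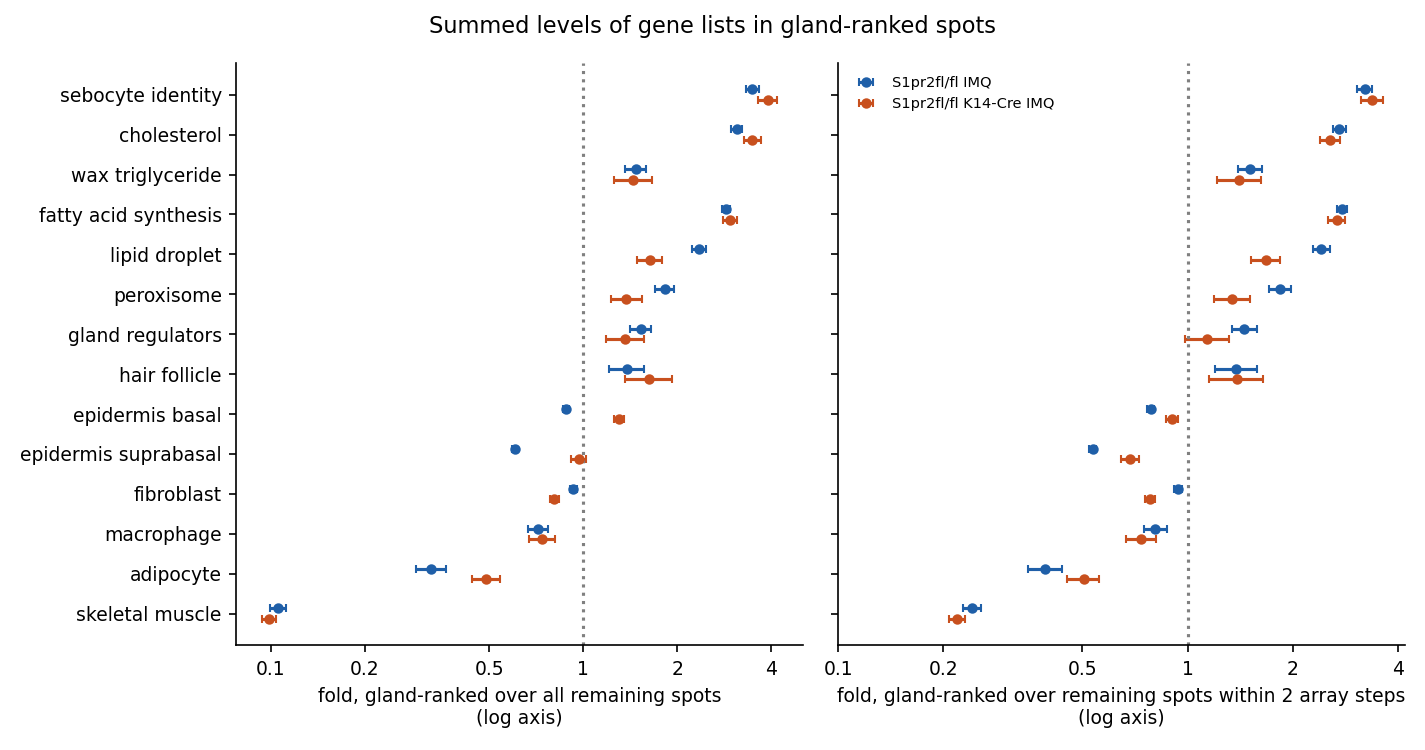
Fold (log axis) of the summed level of gene lists in gland-ranked spots over all remaining spots (left) and over remaining spots within 2 array steps (right), for the S1pr2fl/fl (blue) and S1pr2fl/fl K14-Cre (orange) sections, with exact 95% intervals for counting error. Sebocyte, cholesterol and fatty acid lists lie above 2 in every case, and adipocyte and skeletal muscle lists lie near or below 0.5; the basal keratinocyte list lies on different sides of 1 on the left and below 1 in both sections on the right.

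Outside the fixed lists, the genes with the highest folds had varied known roles. They were taken in each section from the 15 genes with the highest fold that kept their direction with the top 40 or top 160 spots, with spots of at least 1000 UMIs, and with each rule gene left out; 9 of 15 in the S1pr2fl/fl and 8 of 15 in the S1pr2fl/fl K14-Cre section were not rule genes. Serpina3b, a protease inhibitor gene, was 11.8-fold higher (7.19 to 19.7) in the S1pr2fl/fl and 6.38-fold higher (3.69 to 10.8) in the S1pr2fl/fl K14-Cre section. Acoxl, an acyl-CoA oxidase-like gene, was 10.5-fold and 2.66-fold higher, and the aryl hydrocarbon receptor target Cyp1a1 9.56-fold (6.93 to 13.2) and 4.71-fold (3.01 to 7.23). The channel gene Panx3 was 8.87-fold and 4.54-fold higher and Pdss1, which makes the side chain of coenzyme Q, 7.85-fold and 2.99-fold. Gm13178 was 7.32-fold and 7.07-fold higher, and the esterase-like gene Aadacl4 6.68-fold and 5.45-fold. Among the leading genes of the S1pr2fl/fl K14-Cre section, Tmem45b was 10.9-fold higher (6.57 to 18.1) there and 3.95-fold in the S1pr2fl/fl section. Sdr16c6, a short-chain dehydrogenase gene, was 7.85-fold and 5.73-fold higher, in that order, Tmem56 7.69-fold and 4.88-fold, the carboxylesterase gene Ces4a 7.27-fold and 6.43-fold and Aadacl3 7.27-fold and 3.92-fold. Dgka, a diacylglycerol kinase gene, was 7.37-fold higher (4.15 to 12.9) on 23 UMIs there, which lay in 5 of 80 members (6.25%, against 2.42% of the remaining spots), and 1.36-fold (0.849 to 2.11) in the S1pr2fl/fl section. All of these but Dgka were at least 2-fold higher in both sections. The UMI limit for genes counted gland-ranked and remaining spots together here too. Serpina3b passed it in the S1pr2fl/fl section through its gland-ranked spots, with 40 UMIs there and 30 in remaining spots. Tmem45b (34 and 34), Dgka (23 and 34) and Aadacl3 (20 and 30) did so in the S1pr2fl/fl K14-Cre section. The places of these rare genes among the highest folds are thus in part set by the limit.

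The lowest genes included several muscle genes. In the S1pr2fl/fl section Smtnl1, a muscle gene, had 0 UMIs in members and 321 elsewhere, which makes it at least 12.1-fold lower when 3 UMIs are allowed over the members for a count of 0. The upper end of its exact 95% interval, which is wider, was 0.103-fold. Bounds for the genes that follow also allow 3 UMIs. Wfdc1 (at least 3.72-fold lower), the calcium channel subunit gene Cacng6 (at least 3.61-fold), Tmem52 and Arap3 (each at least 3.49-fold) followed. In the S1pr2fl/fl K14-Cre section Lmod3, which organises muscle thin filaments, was at least 7.43-fold lower, the muscle phosphatase gene Dusp13 at least 5.11-fold, the troponin gene Tnnt2 at least 4.59-fold, the sodium channel subunit gene Scn4b at least 4.53-fold and Tgfb2 at least 3.61-fold. Tnnt2 and Tgfb2 were not lower in the S1pr2fl/fl section, at 1.90-fold (0.350 to 6.81) and 1.17-fold (0.633 to 2.01).

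Side by side, the gland-ranked spots of the 2 sections had near-equal levels of the sebocyte list and unequal levels of the rule genes. The sebocyte list differed by a log2 ratio of -0.03 (-0.14 to 0.07) for S1pr2fl/fl K14-Cre over S1pr2fl/fl. The rule genes, by which the spots were chosen, differed by -1.08 (-1.19 to -0.97). Scd1 was higher in the S1pr2fl/fl K14-Cre members, by 0.37 (0.24 to 0.49), while Mgst1 (-1.05), Elovl4 (-1.10) and Mgll (-0.99) were lower. With edgeR's TMM scaling the difference of the list was -0.36, so its near-equality depends on the scaling. The level of the list combined a higher Scd1 with lower levels of several other members. Cholesterol genes differed by -0.27 (-0.36 to -0.18) and ceramide genes by -0.15 (-0.27 to -0.03). The receptor gene background differed by 1.78 (1.69 to 1.87) the other way, adipocyte genes by 1.32 (1.11 to 1.54), muscle genes by 1.56 (1.45 to 1.67) and suprabasal keratinocyte genes by -1.67 (-1.76 to -1.59). These intervals cover counting error of 1 section each, and the part of section, depth and cell makeup in the differences was not tested.

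Among genes of the study's inflammatory and sphingosine-1-phosphate pathways, the cytokine genes were sparse in the gland-ranked spots. MyD88 and NF-κB pathway genes had 531 and 287 UMIs there in sum, and sphingosine-1-phosphate genes 394 and 110. Of 9 psoriasis cytokine genes, members held 35 UMIs in all in the S1pr2fl/fl and 41 in the S1pr2fl/fl K14-Cre section, including 2 and 3 for Il17a, 10 and 8 for Il17f, 10 and 0 for Il1b and 0 and 11 for Il23a. In sum they were at 0.961-fold (0.658 to 1.37) and 1.67-fold (1.17 to 2.33) of the remaining spots, the latter close to the 1.51-fold of the receptor genes. With spots thinned to 1000 UMIs the log2 fold of the S1pr2fl/fl section turned from -0.06 to 0.83, and with the top 40 spots that of the S1pr2fl/fl K14-Cre section turned from 0.74 to -0.07. Only 2 cytokine genes reached 50 UMIs in each section. At least 2-fold higher were 0 of 2 in the S1pr2fl/fl (median log2 fold 0.02) and 2 of 2 in the S1pr2fl/fl K14-Cre section (median 1.22), beside 5.23% and 12.0% of all genes. Il23a, on 11 UMIs in members, passed the limit in the S1pr2fl/fl K14-Cre section only with its gland-ranked spots counted. The 2 of 2 is thus in part set by the limit. MyD88 and NF-κB pathway genes were at 1.04-fold (0.945 to 1.13) and 1.31-fold (1.16 to 1.48), the latter below the 1.51-fold of the receptor genes. At least 2-fold higher were 0 of 14 and at least 2-fold lower 4 of 14 in the S1pr2fl/fl section (5.23% and 7.39% of all genes). In the S1pr2fl/fl K14-Cre section 2 of 14 were higher and 1 lower, near the 12.0% and 15.1% of all genes. Sphingosine-1-phosphate genes were at 1.33-fold (1.19 to 1.48) and 1.48-fold (1.20 to 1.81) in sum, the latter again close to the receptor genes. Of those with at least 50 UMIs, 1 of 9 was at least 2-fold higher and 1 lower in the S1pr2fl/fl section (median log2 fold -0.16), and 1 of 8 was higher and 0 lower in the S1pr2fl/fl K14-Cre section (median 0.49), beside 5.23% and 7.39%, and 12.0% and 15.1%, of all genes. The receptor gene S1pr4 was at 0.50-fold (0.133 to 1.34) and 1.85-fold (0.803 to 3.78), on 4 and 9 UMIs in members, and the transporter gene Spns2 at 0.597-fold (0.440 to 0.793) and 1.05-fold (0.531 to 1.91). S1pr5 was 2.35-fold (1.47 to 3.66) and 2.72-fold higher (1.15 to 5.76), on 26 and 9 UMIs in members. Sgpl1, the lyase that breaks the lipid down, was 1.80-fold (1.46 to 2.19) and 1.78-fold higher (1.10 to 2.75), and the kinase gene Sphk1 1.80-fold and 2.54-fold.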

How the data were processed

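Visium CytAssist libraries of 2 skin sections (formalin-fixed, paraffin-embedded) were used as deposited counts: the authors' Space Ranger (3.0.0 in the file headers, genome build mm10 per the labels) gave whole UMI counts per gene and spot, from probes, for 19465 genes, of which 11 symbols occurred more than once. The sections shared 357 spot barcodes, which name array positions and not cells. Spots with at least 500 UMIs were ranked as described in the report, and UMIs were summed over regions. Depth was 5315351 and 2845826 UMIs, with 95% intervals exact and for counting error only. With 1 section per genotype no test was run. The members, the gene lists and the comparisons were chosen with earlier results of these data known. Named genes were the rule genes, members of the lists, and per section the 15 genes with the highest and 5 with the lowest fold among genes with at least 50 UMIs and a stable direction. Fold counts used 2-fold, and a count of 0 was bounded at 3 UMIs. Alternatives covered rank limits, UMI limits, thinning, comparison regions, left-out genes and TMM. Sums of other lists without their leading gene (Cers4, Krt14, Des, Sox9, Krt75, Elovl4, and Scd1 for fatty acid genes) were added after seeing the data. So were the sebocyte list without Scd1 by rank, and isolated spots without the deepest of them. Sums and folds were tested on simulated data. Python 3.11.15, numpy 2.4.6, scipy 1.17.1, pandas 2.3.3, matplotlib 3.10.9, R 4.3.3 and edgeR 4.0.16 (TMM factors only) were used. Some list members counted in the lists are not reported by name here.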

Additional observations from a re-analysis of the deposited data

Results flagged for a closer look

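In 9 cases the gland-ranked spots lay above the remaining spots in 1 section and below them in the other, with both 95% counting intervals apart from 1. The share of all genes that did so is not given here, so the 9 cases are a description and not a count above background. By the stricter limit of 2-fold, 24 of 9079 genes outside the rule were higher in the S1pr2fl/fl and lower in the other section. Another 29 went the reverse way. The difference between the sections was not tested, since each genotype had 1 section. Values are log2 ratios of the S1pr2fl/fl K14-Cre section minus those of the S1pr2fl/fl section. The basal keratinocyte list differed by 0.57 (0.879-fold in the S1pr2fl/fl and 1.30-fold in the S1pr2fl/fl K14-Cre section), and its most abundant gene Krt14 by 0.60 (0.768-fold and 1.17-fold). The cornified layer genes differed in the same direction, Krtdap by 0.77 (0.654-fold and 1.12-fold), Sbsn by 1.28 (0.817-fold and 1.99-fold) and Dmkn by 1.04 (0.900-fold and 1.85-fold). Krt17, a keratin of follicles and of activated epidermis, differed by 1.14 (0.864-fold and 1.91-fold). Against spots within 2 array steps the basal list was below 1 in both sections, at 0.784-fold and 0.903-fold. Without Krt14 it was above 1 in both, at 1.30-fold and 1.70-fold of all remaining spots. Me1, the malic enzyme gene, differed by -1.55 (1.52-fold and 0.519-fold), and the lipoprotein lipase gene Lpl by -0.98 (1.37-fold and 0.695-fold). Kdr, an endothelial receptor gene, differed by -3.70 (2.09-fold and 0.160-fold), on 2 UMIs in the S1pr2fl/fl K14-Cre members.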

How the results depend on the processing

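No paired analysis was possible because each genotype had 1 section. Values follow in the order S1pr2fl/fl, S1pr2fl/fl K14-Cre. The log2 fold of the sebocyte list, 1.80 and 1.96, stayed above 0 under every alternative run: 2.03 and 2.25 with the top 40 spots, 1.59 and 1.72 with the top 160, 1.22 and 0.68 against adipocyte-ranked spots, 1.68 and 1.75 against spots within 2 array steps, 1.42 and 1.41 without Scd1, and 1.93 and 2.10 without the spots ranked 81 to 160 (chosen after seeing the data). In the S1pr2fl/fl section it was also 1.70 thinned to 1000 UMIs, 1.66 as a mean of spot CPM and 2.56 against keratinocyte-ranked spots. Genes at least 2-fold higher, 563 and 1136, became 350 with the top 160 spots in the S1pr2fl/fl section, 1194 and 2750 with genes of at least 20 UMIs, and 1792 and 2545 at 1.5-fold. The share of members' neighbours that were members, 30.3% and 25.4%, became 19.0% and 17.4% with the top 40, 41.1% and 36.8% with the top 160, and 21.3% without Fa2h in the S1pr2fl/fl K14-Cre section. Lists past 2-fold in sum numbered 8 and 7, and 15 and 12 against keratinocyte-ranked spots. Between the sections the sebocyte list in gland-ranked spots, -0.03, became 0.12 thinned, 0.10 as a mean of spot CPM and -0.36 with TMM. Against keratinocyte-ranked spots the log2 folds turned positive for adipocyte (2.53 and 2.60), skeletal muscle (1.65 and 2.09), smooth muscle (2.92 and 2.27), blood (2.37 and 0.55), fibroblast (2.41 and 2.03), macrophage (2.27 and 2.11) and endothelial genes (1.38 and 0.23), and negative for fatty acid uptake and PPAR target genes (-0.31 and -0.83). Those spots were chosen for keratins. Lists that turned there in 1 section were psoriasis cytokines (0.98) and sphingosine-1-phosphate genes (-0.07) in the S1pr2fl/fl section, and basal keratinocyte (-1.63), regulator (-0.19), MyD88 and NF-κB (-0.09) and ceramide genes (-0.06) in the S1pr2fl/fl K14-Cre section. Against adipocyte-ranked spots 9 list values turned, among them lipid droplet (-0.64), wax and triglyceride (-0.47) and peroxisome genes (-0.13) of the S1pr2fl/fl K14-Cre section, and the others were keratinocyte lists and psoriasis cytokines. In all, 635 of 690 list values under the alternatives kept the reported direction, and of the others 22 came from keratinocyte-ranked, 9 from adipocyte-ranked spots and 24 from other settings, these in the endothelial, fibroblast, basal and suprabasal keratinocyte, cytokine and MyD88 lists. Depth limits genes under 50 UMIs, most of all in the S1pr2fl/fl K14-Cre section, where receptor genes were 1.51-fold higher in members. With 1 section each, animal and genotype cannot be told apart.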
